A study of Mus musculus with 2 samples.

Results

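The genes of the microtubule motors and of the tubulin track were compared between the second polar body (PB2) and the zygote of the mouse embryo at the one-cell stage. They were taken from the deposited table by symbol, as the kinesins (Kif), the kinesin light chains (Klc), the subunits of cytoplasmic dynein (Dync and Dynl) and of dynactin (Dctn), and the tubulins with the gamma-tubulin complex components (Tub). In total 77 of the 11262 genes in the table were members. The mouse annotation GENCODE M21, built on GRCm38, holds 94 protein-coding genes with such symbols, and the other genes were not analysed here. The symbols also take in Kif1bp, which encodes a protein that binds kinesins and is not a motor.

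PB2 is the small cell that the egg extrudes when it completes meiosis after fertilization. Untreated embryos of the strain labelled C57BL/6, and named C57BL/6N in the study's methods, were freed of the zona pellucida late in the one-cell stage and PB2 was detached in trypsin, so that 1 library was made from pooled PB2s and 1 from pooled zygotes, each from amplified polyA RNA. No replicate of either library was available, so no test was run, the spread between samples of a kind is unknown, and each difference describes these 2 libraries. Levels are in TPM, a unit that corrects for transcript length and scales every library to the same total, so each gene is a proportion of its library, and fewer molecules of a gene and more molecules of the others cannot be told apart. The depth of the libraries is unknown.

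Microtubules are polymers of alpha- and beta-tubulin, and gamma-tubulin in its ring complex starts new ones. Kinesins mostly walk towards the plus end of a microtubule, and cytoplasmic dynein, with its activator dynactin, walks towards the minus end. In the egg these motors build the meiotic spindle and help to complete the division, and the remnant of that spindle, the midbody, joins PB2 to the zygote.

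All 14 oocyte transcripts listed were above 1 TPM in both libraries, among them Gdf9, Bmp15 and Oosp1. Their summed level was 31755 TPM (PB2) and 27749 TPM (zygote). By the 2-fold limit described below, 3 of the 14 (Mos, Gdf9 and Zp1) were higher in PB2, 21.4% against 18.9% of all genes. In the zygote 0 were higher, against 8.09% of all genes. Both cells come from the egg, so these transcripts cannot show which library is which. Of 14 markers of cumulus and granulosa cells, which surround the egg before fertilization, 5 were in the table, with a summed level of 88.7 TPM in PB2 against 88.0 in the zygote. Most of that came from Cyp19a1, with 70.9 and 72.2 TPM. Of 8 sperm markers 2 were in the table, and Prm2 had 22.0 TPM (PB2) and 19.8 TPM (zygote). The table adds up to 89.8% of a full library in PB2 and 92.7% in the zygote.

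The 77 motor and tubulin transcripts of the table were all above 0 in both libraries. At least 1 TPM was reached by 71 in PB2 and by 67 in the zygote, and those 67 reached it in both. Most genes did the same, since 10260 of all 11262 genes had at least 1 TPM in PB2 and 9934 in the zygote. Matching genes outside the table could not be counted. These numbers are therefore not read as a result about the members. The median level of the 77 genes was 15.3 TPM in PB2 against 13.3 in the zygote, and 11.1 and 8.7 TPM over the table. Summed, they made up 0.452% of the PB2 library and 0.351% of the zygote library. Across the 77 genes Spearman's rho between the libraries was 0.93, a description across genes that share both libraries, and over the whole table it was 0.92.

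**Figure D1:**
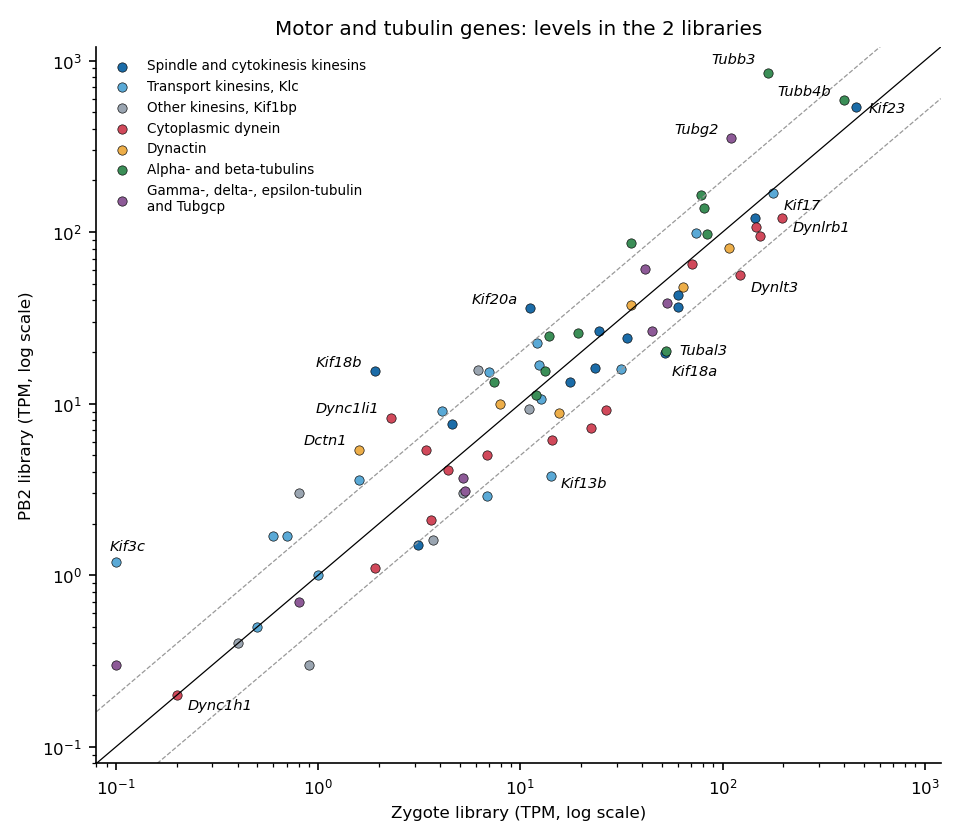
Level of the 77 genes in the zygote library (horizontal axis, TPM, log scale) and in the PB2 library (vertical axis, TPM, log scale), coloured by role, 1 point per gene. The solid line marks equal levels and the dashed lines a TPM ratio of 2 either way. Tubb3 lies highest in PB2 with 848.8 TPM, Kif23 highest in the zygote with 458.3 TPM, and Dync1h1 lowest in PB2 with 0.2 TPM.

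For each gene with at least 1 TPM in either library, 1 TPM was added to both values and the log2 of PB2 over zygote was taken, which is called the log2 ratio here. The added TPM damps the ratio of low genes. Of the 77 genes 71 were compared, and the 6 left out (Dync1h1, Kif1c, Kif26b, Kif27, Tubgcp3 and Tubgcp4) were under 1 TPM in both libraries. Kif3c, Kif13a, Klc2 and Kif21b reached 1 TPM in PB2 alone, so they could enter only as genes higher in PB2. PB2 exceeded the zygote by 2-fold or more for 12 of the 71 genes, 16.9%, against 18.9% of all 10645 genes compared. The reverse held for 8 genes, 11.3%, against 8.09% of all genes. Both shares were near those of all genes. With each log2 ratio centred on the median of all genes the numbers were 8 and 10, and 1387 and 1291 over all genes compared. The median log2 ratio was -0.07, and 0.21 over all genes, so the bulk of the table sat slightly above 0.

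The 12 genes higher in PB2 were Kif18b, Tubb3, Tubg2, Kif20a, Dync1li1, Dctn1, Tuba1c, Kif1bp, Kif21b, Tubb2a, Klc1 and Kif3c. The 8 genes higher in the zygote were Kif13b, Dynlt1b, Dynlt1a, Kif18a, Tubal3, Dynlt1f, Dynlt3 and Kif3b. Kif3c and Kif3b lay exactly at 2-fold, Klc1 just inside with 1.03, and Kifc3 (0.99) and Kif5c (-0.93) just outside. Every role group held genes on both sides of 0, as the plot of log2 ratios shows.

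**Figure D2:**
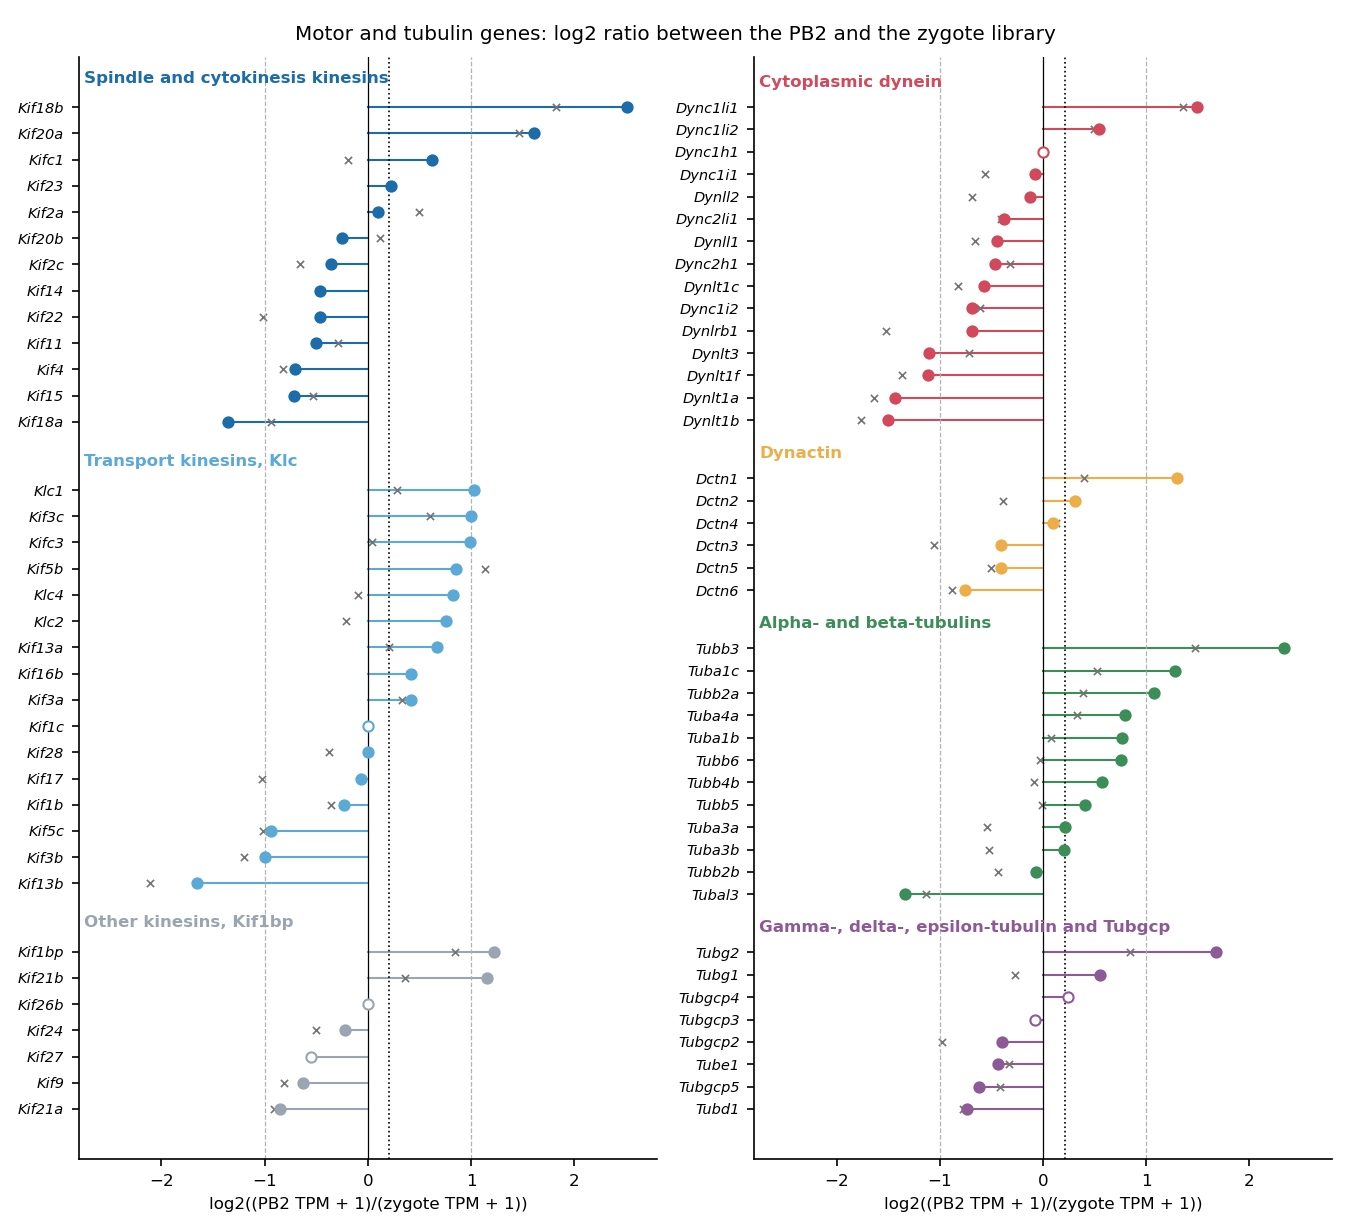
Log2 ratio of each of the 77 genes (horizontal axis), sorted within its role, with positive values higher in PB2. Filled circles are genes compared, open circles the 6 genes under 1 TPM in both libraries, and grey crosses the log2 ratio after the trend on transcript GC content was removed. Dashed lines mark 2-fold and the dotted line the median of all genes, 0.21. The 8 dynein light chains (Dynl) all lie left of 0, while 10 of the 12 alpha- and beta-tubulins lie right of 0, and 5 of 12 with the GC trend removed. Before that removal 6298 of all 10645 genes compared had a log2 ratio above 0 and 4262 below it.

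Alpha- and beta-tubulins summed to more than the kinesins in PB2 (2036.8 against 1271.6 TPM) and to less in the zygote (961.1 against 1265.1 TPM), and the beta-tubulins held the largest difference in summed TPM of the tubulin classes. The 6 beta-tubulin genes added up to 1779.0 TPM (PB2) and 754.7 TPM (zygote), a ratio of 2.36. Tubb3, the class III isotype best known from neurons, had 848.8 TPM in PB2 against 167.5 in the zygote, a ratio of 5.07 and a log2 ratio of 2.33. It was the most abundant gene of the set in PB2, whereas in the zygote Kif23, Tubb4b, Dynlrb1 and Kif17 were above it. Without Tubb3 the other 5 beta-tubulins summed to 930.2 TPM (PB2) and 587.2 TPM (zygote). With the GC trend removed, 1 of these 5 had a log2 ratio above 0, and their median was -0.03.

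Tubb4b, the widely expressed class IVb isotype, had 589.1 TPM in PB2 against 396.7 in the zygote. Its share of the beta-tubulin sum was 52.6% in the zygote and 33.1% in PB2, while that of Tubb3 was 22.2% and 47.7%. By the deposited values the leading beta-tubulin was therefore Tubb4b in the zygote library and Tubb3 in the PB2 library. Tubb2a had 165.6 TPM (PB2) and 78.0 TPM (zygote), a log2 ratio of 1.08, and Tubb6 had 138.4 and 81.4 TPM, a log2 ratio of 0.76. Tubb5 (25.8 and 19.2 TPM) and Tubb2b (11.3 and 11.9 TPM) were the least abundant of the isotypes and lay within 2-fold.

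Beta-tubulin isotypes differ mainly in the tail at the end of the protein, which faces outwards from the microtubule and is read by motors. The last 60 coding bases, stop codon included, are shown for 5 isotypes to make visible how far their reads can be told apart. They were read from the longest protein-coding transcripts of GENCODE M21, and capitals mark bases that differ from Tubb4b, or have no counterpart in it, in an alignment of the whole coding sequences.
Tubb4b: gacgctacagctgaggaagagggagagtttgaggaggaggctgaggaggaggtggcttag
Tubb2a: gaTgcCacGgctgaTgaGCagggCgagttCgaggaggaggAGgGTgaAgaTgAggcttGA
Tubb2b: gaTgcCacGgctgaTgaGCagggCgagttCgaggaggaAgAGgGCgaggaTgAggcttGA
Tubb5: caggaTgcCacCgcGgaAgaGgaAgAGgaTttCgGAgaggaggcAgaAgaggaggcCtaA
Tubb3: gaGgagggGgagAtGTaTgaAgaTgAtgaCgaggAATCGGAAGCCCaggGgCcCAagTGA
The end of Tubb3 departs most visibly from Tubb4b, and Tubb2a and Tubb2b are nearly alike. Over the whole coding sequence Tubb3 was 82.0% identical to Tubb4b, and Tubb2a 96.5% identical to Tubb2b.

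How far reads can be assigned was measured as the share of the 50-base stretches of a gene's transcript that also occur, on either strand, in a transcript of another gene. For Tubb3, on the plus strand of chromosome 8 from 123411424 to 123422015, and for Tubb6 this share was 0%. It was 0.115% for Tubb5, 49.6% for Tubb2a, 39.3% for Tubb2b and 55.5% for Tubb4b, the last mostly shared with its pseudogenes. Tubb4b lies on the minus strand of chromosome 2 from 25222160 to 25224702 and Tubb5 on that of chromosome 17 from 35833921 to 35838306. Tubb2a and Tubb2b lie on the minus strand of chromosome 13, from 34074274 to 34078007 and from 34126748 to 34130466. How reads that fit several genes were treated is not given in the sources used here. The value of Tubb4b and the split between Tubb2a and Tubb2b are therefore uncertain, and so are the shares of the beta-tubulin sum. Which isotype leads in PB2 also rests on the value of Tubb4b. The value of Tubb3 itself does not rest on such a split.

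The alpha-tubulins were lower than the beta-tubulins and closer between the cells, with 257.8 TPM in PB2 against 206.4 in the zygote for 6 genes. Tuba1c had 86.7 TPM (PB2) and 35.1 TPM (zygote), a log2 ratio of 1.28. Tubal3, an alpha-tubulin-like gene, went the other way with 20.3 TPM in PB2 against 52.8 in the zygote, a log2 ratio of -1.34. Their shares of the alpha-tubulin sum were 33.6% and 7.87% in PB2 and 17.0% and 25.6% in the zygote. Tuba3a, the most abundant alpha-tubulin of the table in both libraries, had 97.3 and 84.0 TPM, and Tuba3b 15.5 and 13.3 TPM. Tuba4a (24.7 and 13.8 TPM) and Tuba1b (13.3 and 7.4 TPM) had log2 ratios of 0.80 and 0.77. Tuba1b shared 83.1% of its 50-base stretches with other genes and Tuba1c 61.0%, mostly with each other, so their separate values are uncertain. Tubal3 shared 0.394%.

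Of the gamma-tubulins, which seed microtubules at spindle poles, Tubg2 led in both cells. It had 352.6 TPM (PB2) and 109.8 TPM (zygote), a log2 ratio of 1.67 that became 0.85 with the GC trend removed. Tubg1 had 61.0 and 41.3 TPM, a log2 ratio of 0.55 that became -0.27. Tubg2 made up 85.3% of the gamma-tubulin sum in PB2 and 72.7% in the zygote. Both genes lie on the plus strand of chromosome 11, Tubg1 from 101119938 to 101126419 and Tubg2 from 101155907 to 101161787. Their coding sequences were 93.3% identical, yet only 14.1% and 14.3% of their 50-base stretches occurred elsewhere. Transcripts of the Tubgcp components of the ring complex were scarce. Tubgcp5 had 3.1 TPM in PB2 against 5.3 in the zygote and Tubgcp2 3.7 and 5.2 TPM, while Tubgcp3 and Tubgcp4 stayed under 1 TPM in both. Delta-tubulin (Tubd1) and epsilon-tubulin (Tube1), which serve centrioles, had 26.4 and 38.8 TPM in PB2 and 44.6 and 52.9 TPM in the zygote, within 2-fold.

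**Figure D3:**
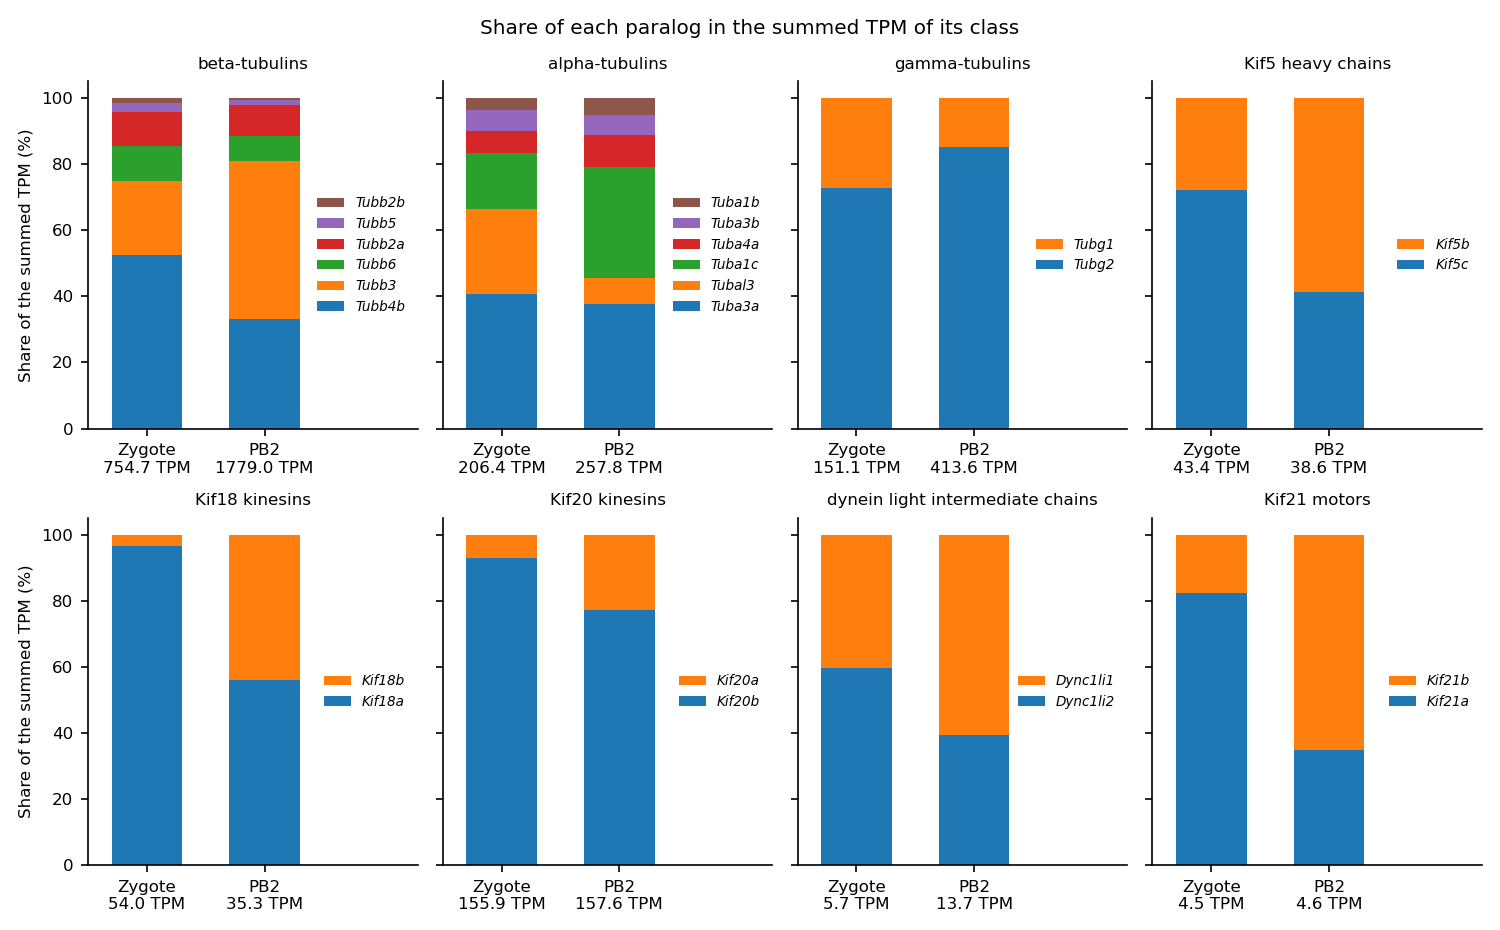
Share of each paralog in the summed TPM of its class (vertical axis, %), in the zygote and the PB2 library, with the summed TPM under each bar. Tubb3 takes 47.7% of the beta-tubulin sum in PB2 against 22.2% in the zygote, and Kif18b 43.9% of the Kif18 sum against 3.52%.

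The 13 kinesins of the spindle and of cytokinesis summed to nearly the same level, 899.1 TPM (PB2) and 895.5 TPM (zygote). Past 2-fold were 2 with more in PB2, 15.4% against 18.9% of all genes, and 1 with more in the zygote, 7.69% against 8.09%. The median log2 ratio of the 13 was -0.36. Kif23, a subunit of centralspindlin that bundles the midbody microtubules, dominated the sum with 536.9 TPM in PB2 against 458.3 in the zygote, a log2 ratio of 0.23. Kif20b, which acts late in cytokinesis, followed with 121.4 and 144.7 TPM.

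The largest log2 ratio of the 71 genes was that of Kif18b, a kinesin of the kinesin-8 family that trims the astral microtubules. It had 15.5 TPM (PB2) and 1.9 TPM (zygote), a log2 ratio of 2.51. Rounding of the deposited values to 1 decimal alone allows a TPM ratio between 7.92 and 8.41. That range leaves out the spread between samples and the depth, which are unknown. Its paralog Kif18a, which damps chromosome movements at the metaphase plate, was lower in PB2 (19.8 TPM) than in the zygote (52.1 TPM), a log2 ratio of -1.35. Kif18a thus made up 96.5% of the sum of the pair in the zygote and 56.1% in PB2. Neither transcript shared a 50-base stretch with another gene.

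In the Kif20 pair 1 gene differed. Kif20a, which brings the Aurora B complex to the central spindle, had 36.2 TPM in PB2 against 11.2 in the zygote, a log2 ratio of 1.61, whereas Kif20b was within 2-fold. Kif20a shares 31.2% of its 50-base stretches with transcripts of Cdc23. The sum of the pair was 157.6 TPM (PB2) and 155.9 TPM (zygote).

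The other 8 spindle kinesins had log2 ratios within 2-fold. Kif11, the motor that pushes spindle poles apart, had 16.1 TPM in PB2 against 23.3 in the zygote, and Kif15, which can back it up, 1.5 and 3.1 TPM. For Kif15 the zygote had 2.07 times the TPM of PB2, and the added 1 TPM brought it to a log2 ratio of -0.71. The chromosome-bound kinesins Kif4 (36.8 and 60.5 TPM) and Kif22 (43.2 and 59.9 TPM) and the midbody kinesin Kif14 (24.3 and 33.8 TPM) were also lower in PB2. Of the microtubule-depolymerizing kinesins, Kif2a (26.4 and 24.6 TPM) stayed close to equal and Kif2c (13.4 and 17.5 TPM) was lower in PB2. Kifc1, a minus-end kinesin that focuses spindle poles, had 7.6 and 4.6 TPM, and shared 47.6% of its 50-base stretches with other genes, mostly its copy Kifc5b.

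Transport kinesins were less abundant, with 375.5 TPM (PB2) and 356.8 TPM (zygote) for 16 genes with their light chains. Kif17 (169.4 and 177.7 TPM) and Kif3a (99.3 and 74.3 TPM), both of the kinesin-2 family, made up most of that sum and lay within 2-fold. Kif3a works as a heterodimer with Kif3b or Kif3c, and the transcripts of both partners were far scarcer. Kif3b had 2.9 TPM in PB2 against 6.8 in the zygote, a log2 ratio of -1, and Kif3c had 1.2 and 0.1 TPM, a log2 ratio of 1. The zygote value of Kif3c is the smallest the table holds above 0, and rounding alone allows a TPM ratio between 7.67 and 25. Kif3c also shares 43.4% of its 50-base stretches with transcripts of 1110002L01Rik and Gm48512.

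Kif13b, a kinesin-3 motor of vesicles, had the lowest log2 ratio of the 71 genes, -1.65, with 3.8 TPM (PB2) and 14.1 TPM (zygote). Its paralog Kif13a had 1.7 and 0.7 TPM. The heavy chains of kinesin-1, the main vesicle and organelle motor, changed order, since Kif5c led in the zygote (31.3 TPM against 12.1 TPM for Kif5b) and Kif5b in PB2 (22.7 TPM against 15.9 TPM for Kif5c). The sum of the pair was 38.6 TPM in PB2 against 43.4 in the zygote.

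The 3 kinesin light chains, which link kinesin-1 to cargo, were higher in PB2 as deposited, but Klc4 and Klc2 changed sign when the trend on transcript GC content was taken out. Klc1 had 15.3 TPM (PB2) and 7.0 TPM (zygote), a log2 ratio of 1.03, Klc4 3.6 and 1.6 TPM, and Klc2 1.7 and 0.6 TPM. In that order their log2 ratios of 1.03, 0.82 and 0.75 became 0.29, -0.09 and -0.21. Kif16b (16.8 and 12.3 TPM), Kif1b (10.6 and 12.6 TPM) and Kif28 (1.0 TPM in both) lay within 2-fold. Kifc3 (9.1 and 4.1 TPM) had a TPM ratio of 2.22 and came under 2-fold through the added 1 TPM, with a log2 ratio of 0.99.

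Among the other kinesins, Kif21b and Kif21a, kinesin-4 motors that restrain microtubule growth, changed order. Kif21b had 3.0 TPM in PB2 against 0.8 in the zygote, a log2 ratio of 1.15, and Kif21a 1.6 and 3.7 TPM. Kif1bp, which holds several kinesins off the microtubule, had 15.8 and 6.2 TPM, a log2 ratio of 1.22. Kif24, a kinesin of centrioles, had 9.3 and 11.0 TPM and Kif9 3.0 and 5.2 TPM, both within 2-fold.

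Cytoplasmic dynein transcripts were lower in PB2, with 493.4 TPM for 15 genes against 774.9 TPM in the zygote. Of the 14 compared, 28.6% (4 genes) were past 2-fold towards the zygote, where all genes had 8.09%, and 7.14% (1 gene) towards PB2, where all genes had 18.9%. Copies of Dynlt1 account for 3 of those 4. The sum was carried by the small light chains, which join the intermediate chains at the base of the motor. The 8 light chain genes had log2 ratios between -1.51 and -0.13 with a median of -0.90. All 8 were thus below 0, beside 4262 of all 10645 genes compared. Of the 8, 4 are the Dynlt1 copies described below, which are not separate observations. In each of 9 alternative ways of processing the same 2 libraries every light chain compared was below 0.

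Dynlrb1, the roadblock light chain, had 121.3 TPM (PB2) and 196.5 TPM (zygote). Dynll1 and Dynll2, which encode nearly the same LC8 protein, had 106.8 and 64.9 TPM in PB2 and 145.6 and 70.9 TPM in the zygote. Of the Tctex-type light chains, Dynlt3 had 56.3 TPM in PB2 against 122.0 in the zygote, a log2 ratio of -1.10. None of these 4 except Dynll1, with 3.48%, shared a 50-base stretch with another gene.

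The other Tctex-type light chain, Dynlt1, exists in the mouse as several copies on chromosome 17, of which 4 are in the table. In GRCm38 Dynlt1a (from 6306340 to 6317500) and Dynlt1f (from 6646602 to 6655900) lie on its minus strand, and Dynlt1b (from 6430112 to 6436296) and Dynlt1c (from 6601671 to 6609774) on its plus strand. Dynlt1a had 9.2 TPM (PB2) and 26.6 TPM (zygote), Dynlt1b 7.2 and 22.3 TPM, Dynlt1f 6.1 and 14.4 TPM, and Dynlt1c 2.1 and 3.6 TPM. Each copy was lower in PB2, with log2 ratios of -1.44, -1.51, -1.12 and -0.57. The copies cannot be counted as separate observations, which their sequences show. The first 60 coding bases of each are given from GENCODE M21, and the capital marks the only position among the 342 coding bases at which the copies differ.
Dynlt1a: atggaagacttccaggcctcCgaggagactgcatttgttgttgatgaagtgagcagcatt
Dynlt1b: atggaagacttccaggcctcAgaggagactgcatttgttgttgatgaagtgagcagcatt
Dynlt1c: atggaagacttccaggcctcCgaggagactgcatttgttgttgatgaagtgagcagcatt
Dynlt1f: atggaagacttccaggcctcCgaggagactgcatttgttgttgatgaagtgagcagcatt
Dynlt1a, Dynlt1c and Dynlt1f are identical over the coding sequence, and between 67.7% and 93.7% of the 50-base stretches of the 4 transcripts occur in another gene. Added up, the copies had 24.6 TPM in PB2 against 66.9 in the zygote, and the zygote sum was 2.72 times that of PB2. TPM corrects for transcript length, and the longest annotated transcripts of the copies run from 771 to 3321 nucleotides. The sum can therefore still shift with how reads were split among the 4 copies.

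Transcripts of the larger subunits of dynein were scarce except for Dync1i2. Dync1i2, an intermediate chain that binds dynactin, had 95.4 TPM (PB2) and 154.0 TPM (zygote), and its paralog Dync1i1 4.1 and 4.4 TPM. The light intermediate chains, which bind cargo adaptors, went the other way from the light chains. Dync1li1 had 8.3 TPM in PB2 against 2.3 in the zygote, a log2 ratio of 1.49, and Dync1li2 5.4 and 3.4 TPM, so that the leading chain was Dync1li2 in the zygote and Dync1li1 in PB2. Dync1h1, the heavy chain that carries the motor, had 0.2 TPM in both libraries. The chains of dynein 2, the motor of cilia, were also low, with 1.1 and 1.9 TPM for Dync2h1 and 5.0 and 6.8 TPM for Dync2li1.

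Transcripts for subunits of a complex thus spanned a wide range of levels on the TPM scale, and within dynein the lowest levels belonged to the longest transcripts. Dync1h1 has a transcript of 14342 nucleotides and Dync2h1 of 14264. The 14 members with transcripts over 6000 nucleotides had a median of 2.35 TPM (PB2) and 2.8 TPM (zygote), against 15.8 and 17.5 TPM for the 63 shorter ones. Over the table the same medians were 6.3 and 4.6 TPM for 1651 genes with long transcripts and 12.6 and 10 TPM for the other 9595. The part of transcript length in these levels was not tested.

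Dynactin, which makes dynein processive, summed to 191.2 TPM in PB2 against 232.1 in the zygote. Dctn1, its largest subunit, which binds microtubules and the dynein intermediate chain, had 5.4 TPM (PB2) and 1.6 TPM (zygote), a log2 ratio of 1.30. Dctn2 (10 and 7.9 TPM), which sits with Dctn3 in the shoulder of the complex, was higher in PB2 but within 2-fold. Dctn4 (37.8 and 35.2 TPM) of its pointed end was nearly equal. Dctn3 (81.3 and 107.8 TPM), Dctn5 (47.9 and 64.0 TPM) and Dctn6 (8.8 and 15.6 TPM) were lower in PB2 but within 2-fold. Of the partners in the dynactin filament, Actr1a, its actin-related core, had 161.0 and 63.9 TPM, a log2 ratio of 1.32, while the median of 5 such partners was -0.80.

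Genes that work with these motors were followed in lists of their own. Of 18 dynein adaptors and Lis1 regulators compared, 4 passed 2-fold towards PB2, 22.2% against 18.9% of all genes, and 0 towards the zygote, with a median log2 ratio of 0.52. With the GC trend removed none of the 4 (Bicd2, Bicdl1, Bicdl2 and Rilp) passed it, at 0.98, 0.23, 0.34 and 0.27, and the median was 0.17. Bicd2, an adaptor that activates dynein, had 24.1 TPM in PB2 against 8.0 in the zygote, and Bicdl1 5.8 and 2.0 TPM. Pafah1b1, which encodes Lis1, was within 2-fold with 26.1 and 36.4 TPM. Of 11 kinesin partners compared, 3 passed it towards PB2, 27.3% against 18.9% of all genes, and 1 towards the zygote, 9.09% against 8.09%, with a median of 0.50. Rhot2, a mitochondrial anchor for motors, had 6.5 and 0.8 TPM, a log2 ratio of 2.06. Rhot2 was compared only because of its level in PB2, as were Rilp among the adaptors and Ttll12 among the tubulin-modifying enzymes, so these 3 could enter only as higher in PB2. The adaptor Rab11fip3 and the modifying enzyme Agbl5 entered the same way within 2-fold, and the enzyme Ttll7 entered through the zygote alone. The lysosomal GTPases Arl8a (48.0 and 14.8 TPM) and Arl8b (106.3 and 49.0 TPM), which recruit kinesin-1, were higher in PB2, and the kinesin adaptor Fez2 (7.6 and 16.8 TPM) in the zygote.

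Of 19 tubulin folding cofactors and chaperones compared, 14 had a log2 ratio below 0, beside 4262 of all 10645 genes. The median of the 19 was -0.23. Past 2-fold towards the zygote were 2, 10.5% against 8.09% of all genes, and 0 towards PB2, against 18.9%. Those 2 were Cct8, a subunit of the chaperonin that folds tubulin, with 241.6 TPM (PB2) and 543.5 TPM (zygote), and Vbp1, a prefoldin subunit, with 46.2 and 122.7 TPM. Of 18 tubulin-modifying enzymes 3 passed it towards PB2, 16.7% against 18.9% of all genes, and 0 towards the zygote, and their median of 0.42 became -0.09 with the GC trend removed. Atat1, which acetylates alpha-tubulin, had 18.2 and 7.8 TPM, and Ttc5, which takes part in the decay of tubulin mRNA, 14.6 and 4.6 TPM. The 6 partners of the gamma-tubulin ring lay within 2-fold, with a median of -0.10. Among them Nedd1 (158.4 and 239.9 TPM) and Mzt1 (156.9 and 144.8 TPM), which attach or complete the ring complex, were above Tubg1 in both libraries.

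The log2 ratio moved with the GC content of the transcript. Spearman's rho was 0.54 for the 71 genes and 0.44 for all 10629 genes whose transcript was found, as a description over genes of the same 2 libraries. Median GC content was 55.6% for the 12 genes higher in PB2 and 49.1% for the 8 higher in the zygote, against 54.3% and 44.8% over all such genes. Tubulin transcripts are rich in GC, with a median of 55.2% for the 12 alpha- and beta-tubulins, and spindle kinesin transcripts poorer, with 46.5%. Removal of the trend on GC content, fitted over all genes, left 5 of the 71 genes past 2-fold towards PB2, beside 963 of all 10629 (9.06%). Towards the zygote it left 11 of the 71, beside 1164 of all 10629 (11.0%).

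Of the 12 genes higher in PB2, 4 stayed past 2-fold after that removal. Kif18b then had 1.82, Tubb3 1.48, Kif20a 1.47 and Dync1li1 1.35, and Kif5b came in with 1.13. Tubg2 had 0.85, Tuba1c 0.52, Tubb2a 0.39 and Dctn1 0.40. The median of the 12 alpha- and beta-tubulins went from 0.66 to -0.02, and without Tubb3 the beta-tubulins had 1 of 5 genes above 0. Of the 8 genes higher in the zygote, 6 stayed past 2-fold, while Kif18a (-0.94) and Dynlt3 (-0.71) did not. The genes gained there were Dynlrb1 (-1.52), Dctn3 (-1.05), Kif17 (-1.03), Kif22 (-1.02) and Kif5c (-1.01). The part of GC content in these differences was not tested.

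**Figure D4:**
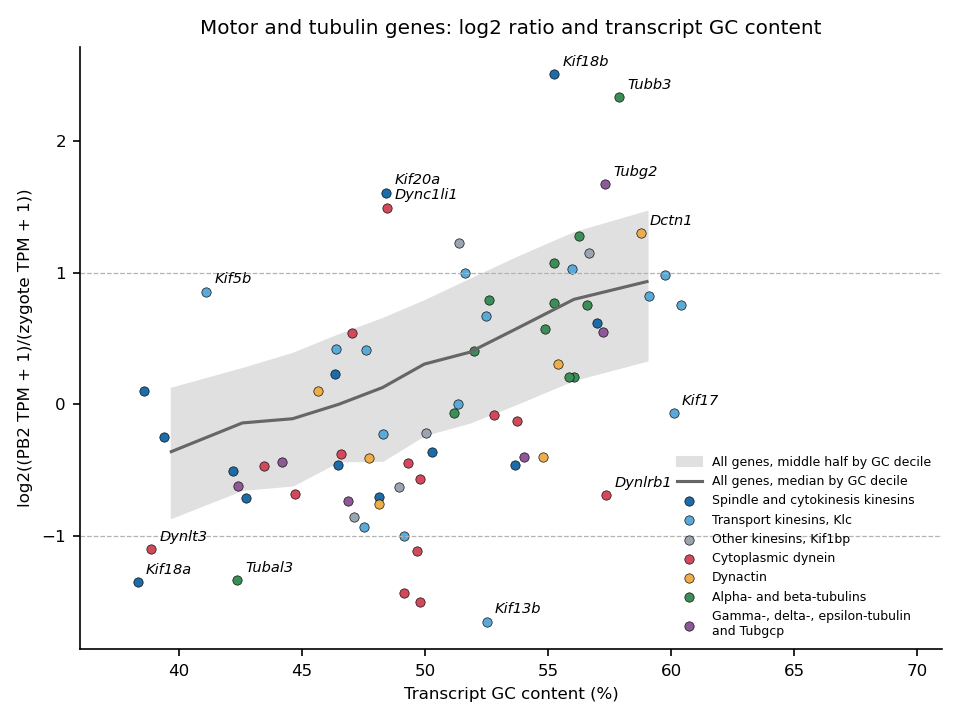
Log2 ratio (vertical axis) against transcript GC content (horizontal axis, %) for the 71 genes, coloured by role, with the median and the interquartile range of all genes by GC decile in grey. Kif18b, Tubb3, Kif20a and Dync1li1 lie farthest above the trend, and Kif13b, Dynlt1b, Dynlt1a and Dynlrb1 farthest below it.

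Transcript ends were searched for the letters TTTTAT and TTTTAAT, known as cytoplasmic polyadenylation elements of stored oocyte mRNA, in the last 150 bases, on the sense strand. Neither motif contains the other. They were found in 14 of the 71 genes, 19.7%, against 25.2% of all genes. The median log2 ratio was -0.40 with and 0.10 without them, but the genes with them had a GC content of 46.8% against 51.3%. After the GC trend was removed the medians were -0.38 and -0.37. Over all genes compared the medians were 0.24 with and 0.20 without the letters, and 0.13 and -0.03 after that removal. A match is a description of these letters in the annotated transcript, and where transcripts end in these cells is unknown.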

How the data were processed

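The authors aligned reads with HISAT2 2.0.4 under default parameters and counted them per gene with HTSeq 0.6.1p1 on an Ensembl annotation, and used DESeq2 1.18.1 for normalization. The submitters' processing notes name the builds OryCun2.0, a rabbit assembly, and GRCm38, while the table holds mouse identifiers. What the authors deposited is a table of TPM values to 1 decimal, 1 column per library, and how TPM was derived is not given in the sources used here. The columns were matched to the samples by name, with 0 left over. TPM holds no read numbers, so no count test and no counting interval could be had, and 1 library per group allowed no test.

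Members were taken by symbol. The members and the lists of partners were chosen with earlier results of these data known, and subfamily groupings and the 6000-nucleotide limit with the values in view. All members could be named, and of the partners those at least 2-fold apart that reached 5 TPM in either library, with single others named after their values were seen. Identifiers were matched to GENCODE M21 (GRCm38), where 11246 of 11262 and all 77 members were found, and the longest protein-coding transcript gave GC content, length and sequence. Trends were loess fits with a span of 0.3 over all genes compared. Ratios at exactly 2-fold were counted as past it.

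The functions were tested on simulated data. Tables were handled with pandas 2.3.3 and numpy 2.4.6 in Python 3.11.15, loess came from statsmodels 0.14.6, alignments from biopython 1.88, rank correlations from scipy 1.17.1 and plots from matplotlib 3.10.9.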

Additional observations from a re-analysis of the deposited data

How the results depend on the processing

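No paired analysis was possible because each group has 1 library. Differences under 1.5 times for a count, under 0.25 for a median and under 0.5 for a gene's log2 ratio were not counted as moves. No called gene changed direction, and Kif18b, Tubb3, Kif20a, Dync1li1, Tubal3, Kif3b, Kif13b, Dynlt1a and Dynlt1b stayed past 2-fold in each of the 9 alternatives to the ratio and its filter. Kif3c stayed in 4 of them and Klc1, Kif21b and Tubb2a in 5. Centring shifts each log2 ratio by 0.21 and left 8 genes past 2-fold towards PB2 and 10 towards the zygote, with 1387 and 1291 over all genes in place of 2009 and 861. Scaling the zygote by a factor of 1.06 gave 9 and 9, with 1779 and 981 over all genes. An added 0.1 TPM in place of 1 gave 16 and 10, with 2632 and 1108 over all genes.

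A limit of 1.5-fold took in 21 genes towards PB2 and 18 towards the zygote, and one of 4-fold took in 2 and 0, by construction. Shares of all genes at these limits are not given here, so the counts are not read as a result about the members. With at least 5 TPM the medians of the dynein adaptors and of the cumulus markers were 0.24 and -0.026, with fewer genes compared, and after rescaling without the most abundant genes that of the other kinesins was -0.48.

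With the GC trend removed 5 members were higher in PB2, beside 963 of all 10629 genes. The medians were then -0.37 for all members, -0.093 for transport kinesins, -0.50 for other kinesins, -0.45 for dynactin, -0.020 for alpha- and beta-tubulins, -0.48 for sperm markers, 0.17 for dynein adaptors, -0.46 for dynactin partners, -0.60 for folding factors and -0.091 for modifying enzymes. With the length trend removed 6 members were higher in PB2, beside 1287 of all 10629 genes. The medians were then -0.68 for spindle kinesins, 0.087 for transport kinesins, -0.57 for other kinesins, -0.75 for gamma-tubulin and its partners by rule, -0.11 for cumulus markers, 0.20 for dynein adaptors, -1.11 for dynactin partners, 0.16 for kinesin partners and 0.082 for modifying enzymes. Both removals also centre the log2 ratios. For what changed further, the cause was not tested. The unknown depth limits genes of a few TPM in either library, such as Kif18b, Kif3c, Kif21b and Dync1li1, by an amount that cannot be given.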
